A study of Mus musculus with 4 samples.

Results

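The genes described here are the core machinery of DNA replication and the enzymes that supply its nucleotides: 39 genes, found by symbol among the 17485 genes of the deposited table, from hearts of mice without Klf9 and of wild-type mice. Klf9 is a Krüppel-like transcription factor that binds DNA through zinc fingers. Total RNA of hearts was sequenced in 2 wild-type and 2 Klf9 knockout libraries, from mice aged 8 weeks, with male sex given in the labels for all 4, food and drink listed as random, and no further treatment named. The series set out to learn how Klf9 acts on the mitochondria of the heart, and knockout against wild type is the single comparison of the design. The strain, how the allele was made and whether it was deleted in all cells are not stated in the labels.

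To copy its DNA once per division, a cell loads the ring-shaped MCM helicase onto origins with the origin recognition complex, Cdc6 and Cdt1, and fires it in S phase by adding Cdc45 and the GINS complex. Polymerase alpha with primase lays down primers, polymerases epsilon and delta extend them on the sliding clamp Pcna, and Fen1 and Lig1 join the fragments of the lagging strand, while ribonucleotide reductase, thymidylate synthase and thymidine kinase supply deoxynucleotides. Most of these genes are transcribed mainly in dividing cells, where E2F factors act on their promoters. Cardiomyocytes of the adult mouse heart divide rarely, and most dividing cells there belong to other cell types.

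The deposited table holds ratios between libraries, from which a value for each gene in each library was recovered. Its unit was not given, and it behaved as a length-scaled level. The depth of the libraries is unknown, and the values summed over all genes to between 409359 and 489534 per library. Fold changes are given as log2 of (value + 1), knockout over wild type, which understates changes of genes with low values. Their standard errors (SE) and adjusted p-values come from limma over all genes with Benjamini-Hochberg adjustment, and a gene is called at an adjusted p below 0.05. Whether replicate libraries were made from different mice is not stated, so the p-values speak only of the spread among these 4 libraries, which may be technical within wild type; the knockout libraries differ in Y-linked genes.

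Klf9 checked the labels of the groups: its value was 74.88 and 58.78 in wild type and 2.66 and 1.99 in knockout (log2 fold change -4.35 ± 0.20 SE, adjusted p = 3.46e-06). Knockout replicate 2 went against its male label, since the Y-linked genes Kdm5d and Ddx3y were both at 0.01 there, the lowest step of the scale, against 4.01 and 7.82 in knockout replicate 1. Results are therefore also given without that library. The groups also stood apart in genes other than Klf9. Esr1, the estrogen receptor alpha gene, had values of 3325.85 and 2725.61 in wild type and 0.09 and 0.03 in knockout. In wild type these lay above the values of Actc1, a heart muscle actin (1345.45 and 1236.23). Whether they came from the native Esr1 gene was not tested. Tnni1, the troponin I of slow muscle and of the fetal and newborn heart, had values of 0.16 and 0.01 in wild type and 655.92 and 993.63 in knockout. These differences follow the groups, so what goes with them and what goes with the loss of Klf9 cannot be told apart in this design. Whether the groups also differed in a transgene, or in age despite their labels, was not tested.

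Nearly all of the 39 listed genes were higher in knockout hearts, which was not so for every other subunit of the same complexes. The list was chosen with earlier results of these data known. All of those other subunits but Rrm2b were looked up after their values were seen, so the contrast is a description and was not tested. Both knockout libraries lay above both wild-type libraries in 38 of the 39 genes, the exception being Gins4, where 40.3% of all genes in the table did so. Among the tested genes it was 36 of 37, against 45.2% of all tested genes. Of the 156 ratios between a knockout and a wild-type library, 154 were above 1. The mean of the knockout libraries was 1.15 to 15.1 times that of wild type, with a median over the 39 genes of 3.75.

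Only genes that reached 1 in 2 or more libraries were tested, which 37 of the 39 did; Orc1 and Pole did not. Higher calls were made for 35 of the 37, against 27.7% of all genes tested, and the other 2, Gins4 and Rfc4, missed the threshold. Their median log2 fold change was 1.30, against 0.12 over all 12135 tested genes. In limma 0 of the 37 were called lower, where 17% of all genes tested were, and 0 were lower at an unadjusted p below 0.05. At that same filter 9 of the 35 had no wild-type library at 1 or more, and so could only be tested because knockout was high. Of the 26 with both wild-type libraries at 1 or more, 24 were called higher, with a median of 1.14 over the 26. The share called higher among all genes with both wild-type libraries at 1 or more was not computed. The 27.7% also counts genes admitted through knockout alone, so it is not a matched share for these 26. With every gene of the table tested and no filter, 33 of 39 were called higher, against 18.4% of all genes, and 0 lower, against 10.3%.

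Several calls were lost with fewer libraries or with another scaling. Leaving out knockout replicate 2, whose Y-linked genes go against its label, left 28 of the genes tested and 16 called higher, against 11.1% of all genes; leaving out knockout replicate 1 left 18 of 28, against 13.8%. All 16 called without replicate 2 were also called without replicate 1. The calls of Orc6, Gins1, Pola1, Rfc2, Rpa1, Rpa2, Tyms and Dut were lost without either of them, those of Prim2 and Pcna without replicate 2 alone, and those of Gins1, Gins3, Pola1 and Dut without wild-type replicate 1. Their fold changes moved little in some (Rpa1 at 0.74 and 0.74 and Tyms at 0.82 and 0.77 without knockout replicates 1 and 2) and more in others (Rpa2 at 0.67 and 0.45). In both cases the remaining knockout library was assumed to vary as the wild type did, and 11 of the 39 genes were not tested. Orc1 and Pole had not been tested before either. The rest, Cdt1, Mcm5, Tk1 and Chaf1b among them, were dropped because wild type was below 1. Knockout replicate 2 had the higher value of the knockout pair in 35 of the 39 genes, with a median log2 difference of 0.24, where 56.6% of tested genes were higher in it, with a median of 0.04. Wild-type replicate 2 was the higher of its pair in 26 of the 39, also with a median of 0.24. Among tested genes 52.4% were higher in that library, with a median of 0.03. Scaling the libraries by the median of ratios (RLE), which moved the median of all genes from 0.12 to 0.01, left 30 of 37 called higher, against 22.9% of all genes. The calls of Gins1, Gins3, Pola1, Rpa2 and Dut were lost there, with adjusted p-values between 0.0542 and 0.0812. In the authors' deposited table, 29 of the 39 passed a q-value below 0.001 with a log2 ratio of at least 1 in the DEGseq comparison, against 14.3% of genes with such a comparison, and 0 passed in the opposite direction.

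**Figure D1:**
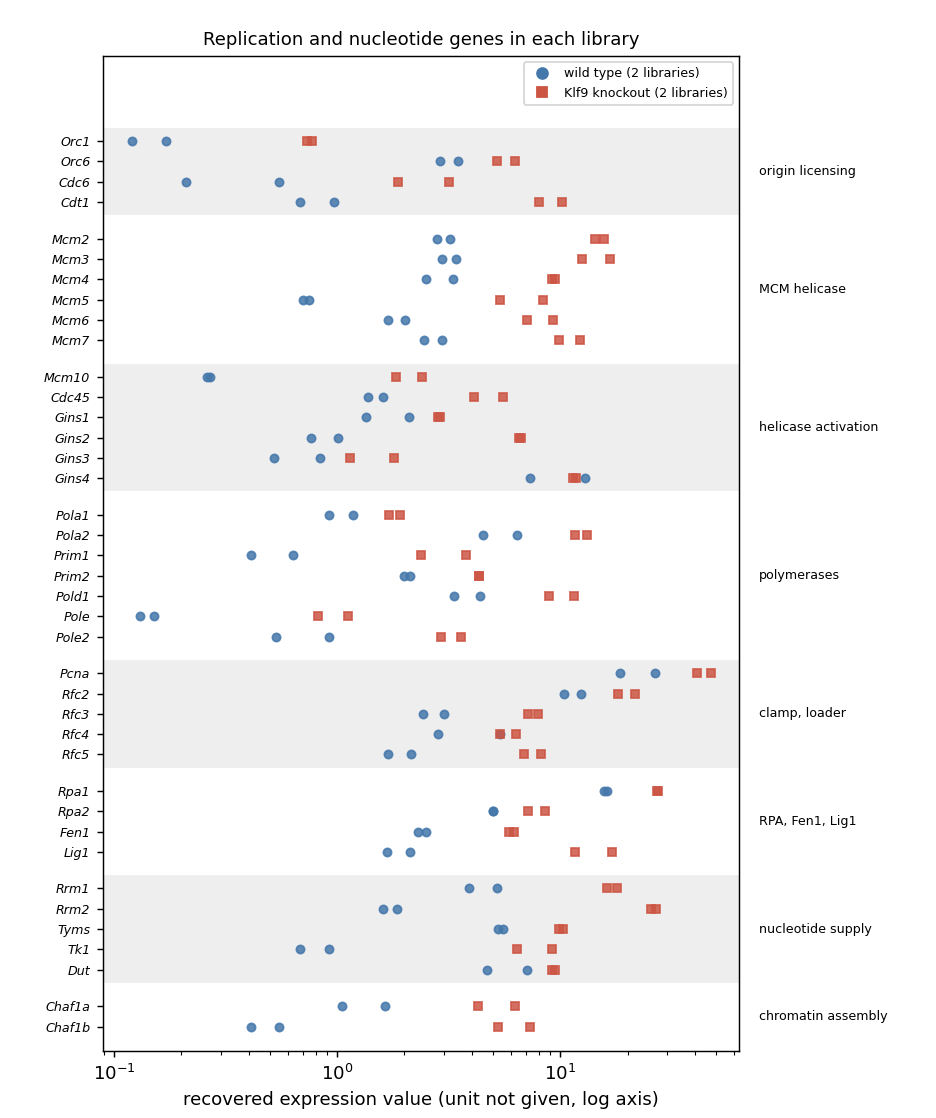
Recovered expression value (log axis, unit not given) of each of the 39 genes in the 2 wild-type (circles) and 2 Klf9 knockout libraries (squares), grouped by role. The knockout squares lie to the right of both circles in every gene but Gins4; in Rfc4 the circle at 5.36 is hidden by the square at 5.38.

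Most of the promoter windows at hand for these genes share a sequence feature, the E2F core. The genes were chosen as replication genes, on whose promoters E2F factors act, so this share is not independent of the choice. RefSeq windows of GRCm38.p6, from 250 bases before to 50 after each start, were at hand for 32 of the 39 genes, with 36 windows in all; none was at hand for Mcm4, Gins1, Gins2, Gins4, Pole, Prim2 and Rfc2. The E2F core was searched in 4 forms on either strand. The first form is TTCCCGC, the second reads TTCGCGC, another is spelled TTGGCGC and the last is spelled TTGCCGC. At least one was present in 63.9% of these windows. It was present in 9.6% of all 32851 windows and in 16.5% of those of tested genes, with 17.1% for genes called higher, 13% for genes called lower and 17.3% for genes not called. Cores that overlap each other or another motif were each counted. A match describes the letters and is not evidence that a factor binds there.

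Shares of the other motifs, searched on both strands, lay closer to those of tested genes. A CCAAT box (CCAAT) was present in 55.6% of the windows, against 37.3% for tested genes and 37.4% of all windows. The GC box (GGGCGGG), a motif of the kind bound by Krüppel-like and Sp factors, was present in 52.8%, against 46.4% and 25.6%, and the CHR element (TTTGAA, or in its other form TTCGAA) in 16.7%, against 13.7% and 19.2%. The 21 genes with a core had a median log2 fold change of 1.41 in the fit with no filter, from 0.46 to 3.32. For the 11 with a window and no core it was 1.06, from 0.60 to 2.27. The ranges overlapped, with Rrm2, Cdt1, Lig1 and Chaf1b, all with a core, above the highest gene without one, Tk1. That order depends on the level of Tk1, which may be too low by a factor of 2, as described below. With the factor restored Tk1 was at 2.65, above Cdt1 (2.46), Lig1 (2.38) and Chaf1b (2.29).

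**Figure D2:**
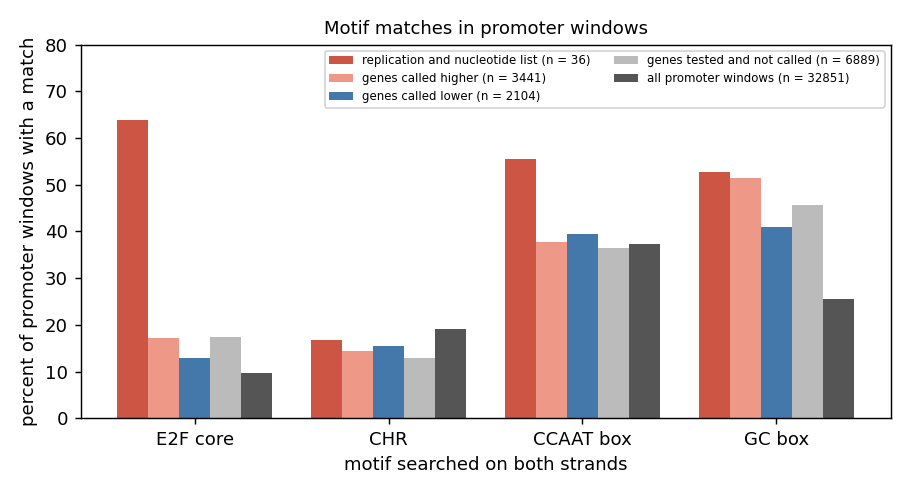
Percent of promoter windows (300 bases) that hold each motif, for the replication and nucleotide genes, for genes called higher, lower or not called in the knockout, and for all windows, with the number of windows in the legend. The bar for the replication and nucleotide genes stands at 63.9% for the E2F core, while the other bars for that motif lie between 9.6% and 17.3%.

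The stretches of 120 bases just before the start are shown for 6 genes, 5′ to 3′ on the gene's own strand, with E2F cores in capitals. They were picked to show a core near the start in genes with a large or a small change, and a promoter with none. Mcm6 (chr1:128359706-128359825 (- strand)) holds 2 runs in capitals, each made of 2 overlapping cores, one on each strand. Rrm1 (chr7:102441575-102441694 (+ strand)) and Prim1 (chr10:128015095-128015214 (+ strand)) hold the same core, TTCCCGC, and Chaf1a (chr17:56040296-56040415 (+ strand)) holds a pair of cores 2 bases apart. Rpa2 (chr4:132768240-132768359 (+ strand)) holds a core and had one of the smaller changes, and Tk1 (chr11:117826015-117826134 (- strand)) holds none in its window and had one of the larger changes.
Mcm6: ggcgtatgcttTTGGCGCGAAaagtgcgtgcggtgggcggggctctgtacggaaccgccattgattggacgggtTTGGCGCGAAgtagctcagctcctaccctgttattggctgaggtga
Rrm1: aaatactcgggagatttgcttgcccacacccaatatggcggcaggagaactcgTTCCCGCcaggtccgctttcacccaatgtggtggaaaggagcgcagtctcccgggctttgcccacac
Prim1: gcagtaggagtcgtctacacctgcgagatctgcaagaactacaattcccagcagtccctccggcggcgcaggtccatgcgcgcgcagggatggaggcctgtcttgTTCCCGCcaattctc
Chaf1a: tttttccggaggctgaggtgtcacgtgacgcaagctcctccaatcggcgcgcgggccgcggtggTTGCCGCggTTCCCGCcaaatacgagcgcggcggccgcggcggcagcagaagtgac
Rpa2: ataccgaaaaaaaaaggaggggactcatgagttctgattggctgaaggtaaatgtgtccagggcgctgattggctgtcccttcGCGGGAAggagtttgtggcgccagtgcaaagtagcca
Tk1: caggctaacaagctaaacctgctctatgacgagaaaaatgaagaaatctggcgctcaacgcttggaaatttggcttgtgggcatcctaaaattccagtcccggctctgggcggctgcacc

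Origin licensing genes rose in knockout hearts, led by Cdt1. Cdt1, which brings the MCM ring to the origin, had values of 0.68 and 0.97 in wild type and 7.99 and 10.21 in knockout (log2 fold change 2.46 ± 0.19 SE, adjusted p = 2.94e-05). Cdc6, the ATPase that works with it, had 0.21 and 0.55 against 1.88 and 3.18 (1.34 ± 0.21, adjusted p = 0.0012). Both genes were low in wild type, under 1 in each library, and in neither did the groups overlap. Gmnn, which encodes geminin, the inhibitor that holds Cdt1, moved the other way, from 30.25 and 52.54 to 11.62 and 11.91 (-1.68 ± 0.25, adjusted p = 0.000899). Within each library the ratio of Cdt1 to Gmnn, which does not depend on library scaling, was 0.0225 and 0.0185 in wild type and 0.688 and 0.857 in knockout. The level of a gene can be off by a factor that is the same in all 4 libraries, so of such ratios only the change between libraries is read.

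The 2 listed subunits of the origin recognition complex were higher in knockout, while the other 4 were not. Orc6 had values of 2.89 and 3.49 in wild type and 5.18 and 6.27 in knockout (0.68 ± 0.18, adjusted p = 0.0145), a call that was lost without either knockout library (adjusted p = 0.0534 without replicate 1 and 0.218 without replicate 2). Orc1, the subunit whose level rises and falls with the cell cycle, was under 1 in all libraries, at 0.12 and 0.17 against 0.73 and 0.77. It was tested only with no filter (0.61 ± 0.08, adjusted p = 0.00677, limma). Orc2, Orc3, Orc4 and Orc5, looked up after their values were seen, had log2 fold changes of -0.12, -0.17, -0.50 and -0.49, with adjusted p-values from 0.0851 to 0.647. Orc4, for example, had values of 8.98 and 13.27 in wild type and 8.23 and 6.67 in knockout. With RLE scaling Orc4 (-0.61, adjusted p = 0.0453) and Orc5 (-0.59, adjusted p = 0.0476) were called lower.

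All 6 subunits of the MCM helicase, the ring that unwinds DNA, were called higher, with log2 fold changes between 1.41 and 2.16 and a median of 1.79. Mcm2 had values of 2.80 and 3.21 in wild type and 14.24 and 15.62 in knockout (1.99 ± 0.17, adjusted p = 4.78e-05). Mcm3 had 3.39 and 2.95 against 12.49 and 16.67, and Mcm7 had 2.96 and 2.44 against 9.85 and 12.22. In each of these the lowest knockout library was more than 3 times the highest wild-type library. Mcm4 had 2.49 and 3.30 against 9.15 and 9.46 (1.41 ± 0.18, adjusted p = 0.000377), the smallest change of the 6. Mcm6 had 1.69 and 2.02 against 7.08 and 9.29 (1.68 ± 0.19, adjusted p = 0.000208). Mcm5 changed most, from 0.75 and 0.70 to 5.34 and 8.32 (2.16 ± 0.21, adjusted p = 9.48e-05).

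The ring takes 1 copy of each subunit. Between the subunits with the largest and the smallest change, the ratio of Mcm5 to Mcm4 within a library was 0.301 and 0.212 in wild type and 0.584 and 0.879 in knockout, a pair picked after its values were seen. Its size is uncertain, since the estimate of read numbers from the authors' deposited p-values put Mcm5 off the common scale by 0.82 on the log2 scale, against 0.03 for Mcm4. With 2 libraries against 2 an exact permutation test of such ratios cannot go below 1 in 3, so they are given as values only.

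Among the genes that turn the loaded ring into a running helicase, 5 of 6 were called higher, and the GINS subunits were spread widely. Cdc45, which binds the ring together with GINS, had values of 1.37 and 1.60 in wild type and 4.08 and 5.55 in knockout (1.22 ± 0.19, adjusted p = 0.00104). Mcm10, a factor needed for helicase activation and not part of the ring, had 0.27 and 0.26 against 1.84 and 2.40 (1.30 ± 0.16, adjusted p = 0.000307). The knockout mean was 3.24 times the wild-type mean for Cdc45 and 8 times for Mcm10, which had the lower values, and in neither did the groups overlap.

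GINS is a complex of 1 copy each of 4 proteins, and the log2 fold changes of its transcripts ran from 0.23 to 2.01. Gins2 had values of 0.76 and 1.01 in wild type and 6.51 and 6.65 in knockout (2.01 ± 0.17, adjusted p = 4.76e-05). Gins1 had 1.35 and 2.10 against 2.84 and 2.90 (0.52 ± 0.19, adjusted p = 0.0483), and Gins3 had 0.52 and 0.84 against 1.14 and 1.79 (0.55 ± 0.18, adjusted p = 0.0379). Both calls were lost with no filter (adjusted p = 0.0889 and 0.0855) and with RLE scaling (0.0812 and 0.0545). Gins4 was at 7.28 and 12.90 in wild type and 11.77 and 11.37 in knockout, so that both knockout libraries lay between the wild-type ones (0.23 ± 0.24, 95% interval -0.32 to 0.78, adjusted p = 0.472). The sign depended on the wild-type libraries: without replicate 1 the log2 fold change of Gins4 was -0.15, and without replicate 2 it was 0.60 with an adjusted p of 0.00352. The ratio of Gins2 to Gins4 within a library was 0.104 and 0.0783 in wild type and 0.553 and 0.585 in knockout.

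**Figure D3:**
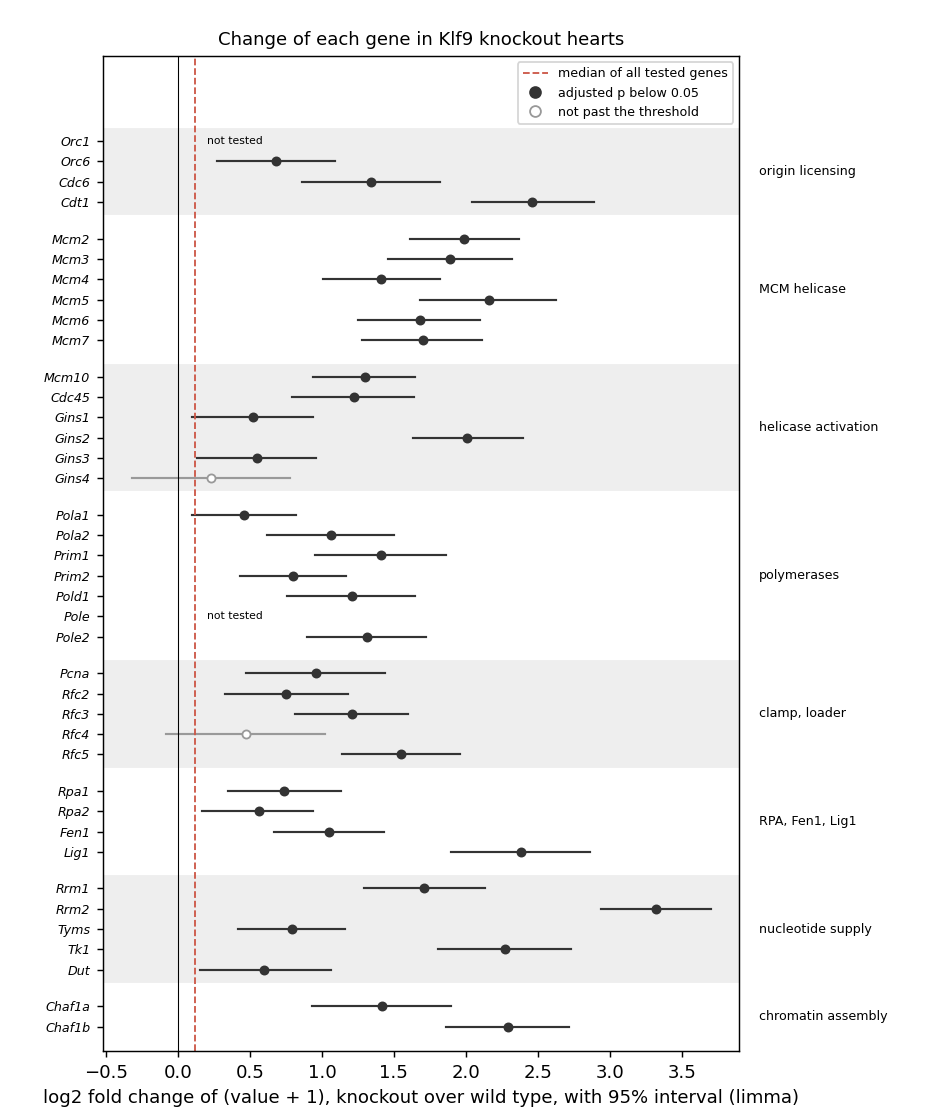
Log2 fold change of (value + 1), knockout over wild type, with its 95% interval from limma, for the 37 tested genes by role; open circles missed the threshold and the dashed line is the median of all tested genes, 0.12. Rrm2 lies farthest to the right at 3.32, and the intervals of Gins4 and Rfc4 include 0.

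The replicative polymerases and primase were called higher in 6 of 6 tested genes, with a median of 1.14. In the polymerase alpha and primase complex, which makes the primers, Pola2 had values of 6.38 and 4.51 in wild type and 11.59 and 13.09 in knockout (1.06 ± 0.20, adjusted p = 0.00256). Its catalytic partner Pola1 had 0.92 and 1.17 against 1.71 and 1.91 (0.46 ± 0.16, adjusted p = 0.0418), a call lost with no filter (adjusted p = 0.0614) and with RLE scaling (0.0697). The small primase subunit Prim1 had 0.41 and 0.63 against 2.38 and 3.77 (1.41 ± 0.20, adjusted p = 0.000667). The large one, Prim2, had 1.98 and 2.11 against 4.30 and 4.30 (0.80 ± 0.16, adjusted p = 0.00455). The groups did not overlap in any of the 4.

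For the polymerases that extend the primers, Pold1, the catalytic subunit of polymerase delta, had values of 4.38 and 3.33 in wild type and 8.89 and 11.55 in knockout (1.21 ± 0.20, adjusted p = 0.00135). Its partners Pold2 and Pold3 were also called higher (0.70 and 0.49, adjusted p = 0.0114 and 0.0423), calls that were both lost without either knockout library, that of Pold3 also with no filter (adjusted p = 0.0642) and with RLE scaling (0.0861), and Pold4 was not (-0.32, adjusted p = 0.218). Pole, the catalytic subunit of polymerase epsilon, stayed near or under 1, at 0.15 and 0.13 against 0.82 and 1.12 (0.79 ± 0.11 with no filter, adjusted p = 0.00863). Pole2, its second subunit, had 0.53 and 0.92 against 3.59 and 2.92 (1.31 ± 0.18, adjusted p = 0.00061). Pole3 and Pole4, its small histone-fold subunits, were not called, with log2 fold changes of -0.25 and 0.42 and adjusted p-values of 0.47 and 0.101.

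The recovered level can be too low by a whole factor that all 4 values of a gene share. The authors' deposited DEGseq p-values, with that tool's formula assumed, pointed to a factor of 2 for Prim1 and Tk1 and of 4 for Pole. With those factors restored, an alternative chosen after seeing the data, the log2 fold changes were 1.79 for Prim1, 2.65 for Tk1 and 1.63 for Pole, and Pole became testable (adjusted p = 0.000174, limma). Ratios between libraries are the same with either level. The estimate was rough for this list. Of 37 genes with a value, 20 lay within 0.15 of the common scale in log2. Gins2 (-1.92) and Rfc2 (-1.70) departed in the direction that a lost factor cannot give, and Mcm7 (0.74) departed without matching a whole factor. By the same estimate the 2 wild-type libraries together held between 14 (Orc1) and 1250 (Rpa1) reads per gene in these 37, with a median of 123.

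The sliding clamp and 3 of the 4 listed clamp loader subunits were called higher. Pcna, the ring that tethers polymerases to DNA, had values of 18.54 and 26.47 in wild type and 41.06 and 47.07 in knockout (0.96 ± 0.21, adjusted p = 0.00687). Of the loader that opens this ring, Rfc5 had 1.69 and 2.15 against 6.89 and 8.20 (1.55 ± 0.18, adjusted p = 0.000252) and Rfc3 had 2.43 and 3 against 7.16 and 7.96 (1.21 ± 0.17, adjusted p = 0.000756). Pcna was less than doubled between the group means while Rfc5 was 3.93 times as high. Rfc2 had 10.39 and 12.31 against 18.11 and 21.58 (0.75 ± 0.19, adjusted p = 0.0106). Rfc4 had 2.83 and 5.36 against 5.38 and 6.32; the groups just failed to overlap, and the interval of its change ran from -0.08 to 1.02 (0.47 ± 0.24, adjusted p = 0.148). Without wild-type replicate 1 the log2 fold change of Rfc4 was 0.10 (adjusted p = 0.597), and without replicate 2 it was 0.84 (adjusted p = 0.00059). Rfc1, the large subunit, had 10.26 and 8.23 against 10.76 and 10.34 (0.18, 95% interval -0.23 to 0.58, adjusted p = 0.441). Within a library the ratio of Rfc5 to Rfc1 was 0.165 and 0.261 in wild type and 0.64 and 0.793 in knockout.

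Single-strand binding and the joining of Okazaki fragments followed, with 4 of 4 called higher. Lig1, the ligase that seals the lagging strand, changed most, from 2.12 and 1.67 to 11.57 and 16.97 (2.38 ± 0.21, adjusted p = 5.71e-05). Fen1, the nuclease that trims the flaps before sealing, had 2.30 and 2.51 against 5.89 and 6.19 (1.05 ± 0.17, adjusted p = 0.00119). In replication protein A, which coats single-stranded DNA, Rpa1 had 16.10 and 15.73 against 27.26 and 27.19 (0.74 ± 0.17, adjusted p = 0.00805). Its replicates lay close together, yet its call was lost without either knockout library (adjusted p = 0.126 and 0.14). Rpa2, whose promoter with a core near the start is shown above, had 4.97 and 5 against 7.18 and 8.50 (0.56 ± 0.17, adjusted p = 0.026, and 0.0542 with RLE scaling). Rpa3, the smallest subunit, had 3.95 and 5.33 against 4.11 and 4.06 (-0.14, 95% interval -0.56 to 0.28, adjusted p = 0.571).

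Across 10 replication complexes, subunits inside and outside the list thus differed in their calls. The 13 subunits outside the list comprised 3 called higher (Pold2, Pold3 and Rbbp4), 1 called lower (Rrm2b) and 9 not called. Neither share was above that of all genes tested, 27.7% higher and 17% lower. All 13 but Rrm2b were looked up after their values were seen. Rbbp4, the third subunit of chromatin assembly factor 1 and a member of many other chromatin complexes, had values of 29.69 and 36.12 in wild type and 56.68 and 65.08 in knockout (0.87 ± 0.19, adjusted p = 0.0066), a call lost without knockout replicate 2. Whether these changes differ between listed and other subunits was not tested, since the lists were drawn up with results of these data known.

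**Figure D4:**
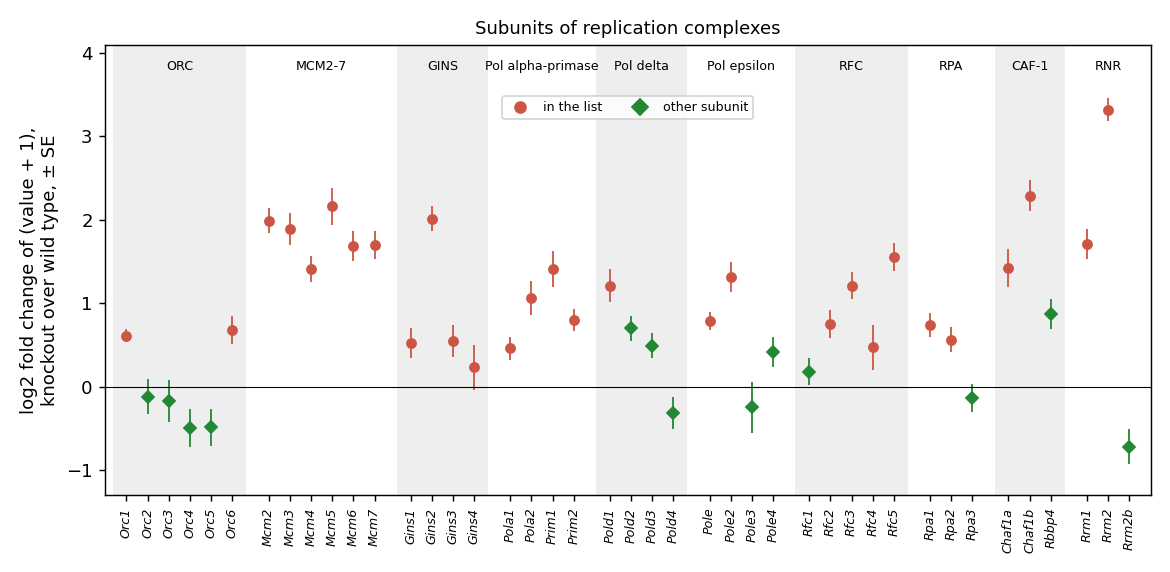
Log2 fold change of (value + 1), knockout over wild type, ± SE, from the fit with no filter, for the subunits of 10 complexes; circles are genes of the list and diamonds other subunits. In the origin recognition complex Orc1 and Orc6 lie at 0.61 and 0.68 and the other 4 subunits between -0.50 and -0.12, and in ribonucleotide reductase Rrm2 lies at 3.32 and Rrm2b at -0.72.

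Nucleotide supply held the largest change of the list. Ribonucleotide reductase makes deoxynucleotides from ribonucleotides, with a large subunit, Rrm1, and a small subunit that is either Rrm2, made in S phase, or Rrm2b, also made in resting cells. Rrm2 had values of 1.60 and 1.86 in wild type and 25.44 and 26.93 in knockout (3.32 ± 0.17, adjusted p = 4.34e-06), and it ranked 37 among 12135 tested genes by log2 fold change. Rrm1 had 3.91 and 5.19 against 16.13 and 18 (1.71 ± 0.19, adjusted p = 0.000171). Rrm2b went the other way, from 6.97 and 9.86 to 5.15 and 4.16 (-0.72 ± 0.20, adjusted p = 0.0186), a call lost with no filter (adjusted p = 0.0566) and without knockout replicate 2. The ratio of Rrm2 to Rrm2b within a library was 0.23 and 0.189 in wild type and 4.94 and 6.47 in knockout, and that of Rrm2 to Rrm1 was 0.409 and 0.358 against 1.58 and 1.5.

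The promoter of Rrm2 is shown for the 250 bases before its start (chr12:24708004-24708253 (+ strand)), since its single E2F core, in capitals, begins 235 bases before the start and not near it.
Rrm2: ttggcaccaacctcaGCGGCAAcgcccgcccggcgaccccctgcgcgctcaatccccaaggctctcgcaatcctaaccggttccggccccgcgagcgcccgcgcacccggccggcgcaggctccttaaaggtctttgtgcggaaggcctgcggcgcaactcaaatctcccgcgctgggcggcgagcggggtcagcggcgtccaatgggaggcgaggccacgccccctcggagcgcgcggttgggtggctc

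Of the 2 thymidine kinases the one tied to division was called higher and the mitochondrial one was not called. Tk1, the thymidine kinase of the cytosol made in S phase, had values of 0.92 and 0.68 in wild type and 6.37 and 9.17 in knockout (2.27 ± 0.20, adjusted p = 6.02e-05). Tk2, the mitochondrial kinase, had 4.96 and 5.27 against 4.67 and 4.78 (-0.09, 95% interval -0.47 to 0.28, adjusted p = 0.668). The ratio of Tk1 to Tk2 within a library was 0.185 and 0.129 in wild type and 1.36 and 1.92 in knockout, before the factor of 2 that Tk1 may lack in every library. Tyms, which makes thymidylate from deoxyuridylate, had 5.51 and 5.27 against 9.86 and 10.24 (0.79 ± 0.16, adjusted p = 0.00464). Dut, which removes dUTP before it can be built into DNA, had 4.71 and 7.05 against 9.14 and 9.42 (0.60 ± 0.20, adjusted p = 0.0376), a call lost with no filter (adjusted p = 0.0858) and with RLE scaling (0.0676). Tk1 and Rrm2 had larger log2 fold changes than Tyms and Dut, and in none of the 5 genes of nucleotide supply did the groups overlap.

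The 2 specific subunits of chromatin assembly factor 1, which places new histones behind the fork, were both called higher. Chaf1b had values of 0.55 and 0.41 in wild type and 5.27 and 7.29 in knockout (2.29 ± 0.19, adjusted p = 4.47e-05), and it was one of the 9 genes with no wild-type library at 1 or more. Chaf1a had 1.63 and 1.05 against 4.27 and 6.28 (1.42 ± 0.21, adjusted p = 0.000956). In both, knockout replicate 2 was the higher of the pair, as in 35 of the 39 genes.

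Other genes of the same processes, in lists drawn up with earlier results known, moved less uniformly. Among 41 tested replication factors outside the list, 23 were called higher, 1 lower (Gmnn) and 17 neither. Their median log2 fold change was 0.55, and of all genes tested 27.7% were called higher and 17% lower. Some of the 23, such as Clspn and Ticrr, named after their values were seen, had no wild-type library at 1 or more. Those genes could only be tested because knockout was high. Without knockout replicate 1 the higher calls were 8 of 32, against 13.8% of all genes, and without replicate 2 they were 6 of 32, against 11.1%. The 3 with the lowest p were Top2a, the topoisomerase that untangles sister chromatids (1.28 and 1.56 in wild type, 20.71 and 26.59 in knockout, log2 fold change 3.34), Uhrf1, which guides maintenance methylation behind the fork (2.39), and Asf1b, a histone chaperone (2.17). Top2a changed about as much as Rrm2.

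Enzymes of nucleotide metabolism outside the list mostly did not pass the test. Of 28 tested, 7 were called higher, 2 lower and 19 neither, and the median was 0.19. Neither share was above that of all genes, 27.7% higher and 17% lower. The higher calls with the lowest p were Dctd, the deaminase that feeds thymidylate synthesis (1.43), Ctps2, a CTP synthase (1.0), and Dtymk, thymidylate kinase (0.94). The lower calls were Guk1, guanylate kinase (39.21 and 47.54 against 23.66 and 23.76, log2 fold change -0.84, adjusted p = 0.0065), and Rrm2b. Dck, the deoxycytidine kinase of the cytosol, was higher (0.75, adjusted p = 0.0159). Its mitochondrial counterpart Dguok (-0.32, adjusted p = 0.176) and the dNTP hydrolase Samhd1 (-0.07, adjusted p = 0.76) missed the threshold. The counts here depended on single libraries: higher calls were 2 without knockout replicate 2 and 12 without wild-type replicate 2, and lower calls were 6 without wild-type replicate 1 and 1 without knockout replicate 1. The call of Guk1 was lost without either knockout library, and those of Dck and Dtymk without replicate 2.

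Of 31 genes of E2F, RB and S phase control, 19 were called higher, 5 lower and 7 neither, with a median of 0.82, against 27.7% higher and 17% lower of all genes tested. The lower calls were thus about as frequent as among all genes. Some of the 19 higher calls, E2f1, E2f7, E2f8 and Rbl1 among them, had no wild-type library at 1 or more. Those genes could only be tested because knockout was high. E2f1, an activating E2F factor, had values of 0.98 and 0.99 in wild type and 7.83 and 10.79 in knockout (2.36 ± 0.19, adjusted p = 4.02e-05). Ccna2, the cyclin A of S phase and G2, changed by 3.42 and Mki67, a protein of dividing cells, by 3.24. Both directions occurred among factors known to repress E2F targets. Called lower were Rb1 (9.58 and 12.30 against 7.06 and 6.01, log2 fold change -0.66, adjusted p = 0.0199), Rbl2 (-0.81, adjusted p = 0.0044) and E2f6 (-0.97, adjusted p = 0.00358). Called higher were their relatives Rbl1 (0.82, adjusted p = 0.00224), E2f7 (1.49, adjusted p = 0.000274) and E2f8 (1.82, adjusted p = 0.000119), named after their values were seen. Tfdp2, a dimer partner of E2F factors, was also lower (-1.43, adjusted p = 0.000413). Among the inhibitors of cyclin-dependent kinases, Cdkn1c was higher (1.0, adjusted p = 0.00298), while Cdkn1a (-0.64, adjusted p = 0.209) and Cdkn1b (0.20, adjusted p = 0.496) missed the threshold. Without knockout replicate 1 this list had 8 higher (13.8% of all genes) and 2 lower calls of 22 tested, and without replicate 2 it had 6 higher (11.1% of all genes) and 1 lower. The calls of Rb1 and Rbl2 were lost without either knockout library and that of E2f6 without replicate 2.

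The ratios of replication genes to Mki67 within each library differed in pattern. The ratio of Rrm2 to Mki67 was 1.55 and 1.60 in wild type and 1.5 and 1.3 in knockout, whereas that of Mcm2 to Mki67 was 2.72 and 2.77 against 0.838 and 0.752. These pairs were picked after their values were seen.

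**Figure D5:**
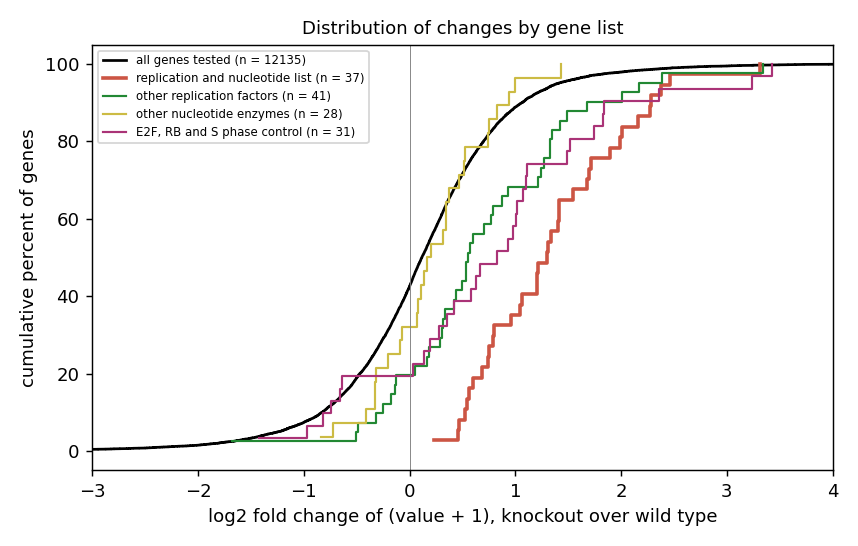
Cumulative percent of genes against log2 fold change of (value + 1), knockout over wild type, for all tested genes (black), the replication and nucleotide genes and the 3 other lists; all genes run beyond the axis on both sides. The curve of the replication and nucleotide genes starts at 0.23 (Gins4) and has its median at 1.30, while the nucleotide enzymes outside the list lie closer to the curve of all genes.

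Several markers of other cell types also differed between the groups. Of all genes tested, 27.7% were called higher and 17% lower. In whole-heart RNA, more cells of a type and more RNA per cell cannot be told apart. The summed value of 10 cardiomyocyte markers, led by Myl2 and Myh6, was 27703 and 32421 in wild type and 33117 and 31716 in knockout. As a sum, heart muscle transcripts were thus high in all 4 libraries. Single markers moved, with 2 called higher, Tnni1 (9.54) and Myh7 (1.81), and 1 lower, Tnni3 (-0.73). Tnni1 had no wild-type library at 1 or more, and the call of Tnni3 was lost with no filter (adjusted p = 0.0762, limma). Fibroblast markers summed to 439 and 591 in wild type and to 1187 and 1253 in knockout, with 5 of 8 called higher and 1 lower. Of the 2 with the highest mean, Col1a1 was called higher (3.01) and Dcn lower (-1.16). Epicardial markers, led by Aldh1a2 and Wt1, summed to 16.2 and 19.9 against 51.5 and 51.8, with 5 of 5 tested called higher and Upk1b at 0.01 in one wild-type library. Macrophage markers, led by Lyz2 and C1qa, went the other way, from 205 and 350 to 58.5 and 58.5, with 7 of 8 called lower.

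Of 8 markers each of endothelial and of smooth muscle cells and pericytes, 3 and 4 were called higher, and 0 and 1 lower. These and the counts below stand beside 27.7% higher and 17% lower of all genes tested, and no test compared them. Neutrophil markers summed to 18.6 and 20.0 in wild type and to 3.51 and 3.94 in knockout (1 of 4 tested higher, 3 lower), and red cell markers had 1 of 7 called higher. Lymphocyte markers were at the edge of detection in all libraries, with sums between 2.67 and 4.09 and Cd3e and Cd3g at 0.01 in at least one of them, and 1 of 1 tested lower. Of the Schwann and neuronal markers 2 of 3 tested were called higher and 1 lower. Which cells carried the higher replication transcripts, and the part of these marker changes in the result, was not tested.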

How the data were processed

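The authors deposited 1 table of comparisons. Per the file headers it holds log2 ratios for each wild-type and knockout library pair, with PoissonDis p-values and false discovery rates, and a group log2 ratio with DEGseq p-values and q-values. One of the authors' false discovery rate columns goes above 1, was read as a score and was not used. Aligner, counting tool, build and depth are not given in the sources used here.

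Library values were recovered from the pairwise ratios by continued fractions, as values in steps of 0.01. All 17485 genes were resolved, 1333 of them with a missing ratio read as a pair at the lowest step. The method was tested on 3000 made-up sets of 4 values, drawn with noise around recovered ones, where 93.9% came back exactly. That test took values in whole steps as given, so it cannot check the size of the step or the levels themselves. Where the 4 values of a gene have a common divisor it cannot be seen, so the level comes out too low while its ratios are intact. A Poisson model counts no replicate error, so the main test was limma 3.58.1 in R 4.3.3 (trend and robust) on log2(value + 1), with group as the only term, over the 12135 genes with at least 1 in at least 2 libraries. On simulated data for this comparison with 12135 genes, 96% of 2-fold and 100% of 4-fold changes were recovered, with 7 false calls. Only 100 genes changed at each fold there, and the noise of a gene was set by its mean level. In the data 3367 genes were called higher and 2061 lower, so the simulated rates need not hold for them.

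The members and lists were chosen with earlier results of these data known. All members were named, with Klf9, a fixed set of related genes, and the 3 lowest p in each direction of each other list. One gene that this rule takes is not reported here. Other subunits of the complexes were added after their values were seen. The alternatives tried were scaling by RLE or the upper quartile, a minimum of 5 or none, a pseudocount of 0.1, no trend or robust moderation, a replicate block and each library left out. Promoters are RefSeq windows of GRCm38.p6, matched by gene for 32 of 39 members; the deposited table itself names no build. Python 3.11.15 was used, with numpy 2.4.6, pandas 2.3.3 and matplotlib 3.10.9.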

Additional observations from a re-analysis of the deposited data

How the results depend on the processing

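In all alternatives run, 0 of the replication and nucleotide genes were called lower. Over all genes tested, higher calls were 2771 of 12115 with RLE scaling and 3076 of 12129 with upper quartile scaling. They were 3299 of 12135 with a pseudocount of 0.1 and 3336 of 12135 without trend or robust moderation. With no filter they were 3225 of 17485, and with a minimum of 5 they were 2411 of 8603. Higher calls among the replication and nucleotide genes were 30 of 37 with RLE scaling, 33 with upper quartile scaling and 33 with a pseudocount of 0.1. These calls were 32 without trend or robust moderation, 33 of 39 with no filter and 25 of 27 with a minimum of 5. With 1 library left out they ranged from 16 to 37, the lowest without knockout replicate 2, where fewer genes were tested. Over all genes, higher calls ranged from 1274 to 4340 and lower calls from 1033 to 2982 in that way. Other replication factors had 6 to 28 higher and 1 to 7 lower calls, other nucleotide enzymes 2 to 12 and 0 to 6 (the 0 in limma without knockout replicate 2, where 1 was lower at an unadjusted p below 0.05), and genes of E2F, RB and S phase control 6 to 21 and 1 to 6. A minimum of 5 gave 12 higher calls among other replication factors and 8 among genes of E2F, RB and S phase control, with fewer genes tested. RLE scaling gave 3 lower calls among other replication factors (Gmnn, Orc4 and Orc5), and no filter gave 1 among other nucleotide enzymes; the cause was not tested.

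The replicate numbers only share a number, since the deviations of same-numbered libraries had a correlation of -0.035. With a replicate block, calls were 35 higher and 0 lower among the replication and nucleotide genes, 2 lower among other replication factors, and 3514 higher and 2275 lower over all genes. Among the named genes, signs turned only when a wild-type library was left out, all in genes that missed the threshold in the comparison of all 4 libraries. With wild-type replicate 1 and then replicate 2 left out, in that order, the log2 fold changes were -0.15 and 0.60 for Gins4, 0.04 and -1.32 for Cdkn1a, -0.10 and 0.49 for Cdkn1b, -0.36 and 0.11 for Orc2, -0.51 and 0.16 for Orc3, -0.32 and 0.04 for Rpa3 and -0.70 and 0.19 for Pole3. Samhd1 moved to 0.01 without wild-type replicate 2. The unknown depth and unit limit what can be said of genes under 1, Orc1 and Pole above all.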
